A study of Mus musculus with 6 samples.

Results

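The mitochondrial respiratory chain genes were taken as every protein-coding gene of the GENCODE mouse annotation whose symbol begins with Nduf, Uqcr, Cox4, Cox5, Cox6, Cox7, Cox8 or Atp5, together with Sdha, Sdhb, Sdhc and Sdhd. This gave 94 genes of 22028. Grouped by symbol, 36 fell to the subunits of complex I and 8 to its assembly factors. Another 4 fell to complex II, 8 to complex III, 20 to complex IV and 18 to the ATP synthase. These groups follow the symbols and are not full counts of subunits, and a second entry of Atp5o is among the 18. Each gene was read through the H3K27ac peaks within 3 kb of any of its transcription starts, and 82 of the 94 had such a peak in all 4 peak lists. Among all protein-coding genes 47.2% (10391) did, and these 10391 promoters are the background used throughout.

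The respiratory chain passes electrons from NADH and succinate, through complexes I and II, to ubiquinone and on through complex III, cytochrome c and complex IV to oxygen, and the proton gradient built on the way drives the ATP synthase. Apart from the few subunits encoded by mitochondrial DNA, the subunits come from nuclear genes scattered over the chromosomes, and most of these are expressed in nearly every cell type. Some complex IV subunits have a widely expressed isoform and a second one known from heart, skeletal muscle, lung or testis. Nuclear respiratory factor 1 (NRF1), the GABP complex of the ETS family, YY1 and the estrogen related receptors (ERR) are known regulators of these promoters, and acetylation of histone H3 at lysine 27 (H3K27ac) marks active promoters and enhancers.

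The ChIP-seq libraries came from B16 F10, a line of pigment-forming melanoma cells of the mouse. The culture was started at 100 cells per cm2, a density at which cells progressively gain pigment, and was harvested on day 5. Low pigment (LP) and high pigment (HP) cells were sorted from these cultures by side scatter, a light scattering measure that moves with melanin content, so LP cells served as the reference for HP and no untreated arm was used. LP and HP had 2 replicates each, immunoprecipitated with the same antibody from an equal amount of chromatin within a replicate set, and IgG libraries of unsorted cells were the authors' controls. Nothing stated that the replicates were separate cultures, so the tests measure the spread between these libraries, which may be technical, in a line that is a single tumour line.

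Libraries held 11467942 to 15353176 fragments and 57942 to 71529 peaks. Of 9 melanocyte markers, 8 had a promoter peak in all 4 lists and Slc45a2 was without one in LP replicate 1. Of 12 markers of T cells, other immune cells, endothelium, keratinocytes and fibroblasts, only Pecam1 had one in all 4 lists and 6 had none in any list. Pecam1 reached a pileup of 1.13 to 2.39 FPM (fragments covering the summit per 1000000 fragments of the library). The macrophage marker Cd68 had a peak in 3 lists, at 0.698 in LP replicate 1 and 2.09 and 3.37 in HP. The fibroblast marker Col1a1 also had one in 3 lists, at 0.456 in LP replicate 2 and 0.522 and 1.40 in HP. The summed pileup over the melanocyte markers was 14.2 and 13.1 FPM in LP and 24.9 and 41.8 in HP. For the other markers it was 2.44 and 1.69 in LP against 5.57 and 8.28 in HP, and the part of either list in the results was not tested. HP replicate 2 stood apart: the median pileup of all promoters tested was 3.23 and 3.19 FPM in LP replicates 1 and 2, 4.88 in HP replicate 1 and 8.21 in HP replicate 2. Fold enrichment over local background, at its median over the same promoters, was 10.6 and 14.7 in LP, 14.9 in HP replicate 1 and 39.1 in HP replicate 2. Whether this came from the cells or from the immunoprecipitation was not tested, and the counts over the genes, the medians of the complexes and the genes that passed the test are also given relative to library medians.

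The promoter windows of 3 respiratory chain genes are given as examples of the sequence around their starts. They are the genes with the largest and the smallest HP minus LP difference and the highest mean pileup, read from RefSeq on GRCm38.p6 (mm10), 5′ to 3′ along the gene, from 250 bases before to 50 bases after the start. Capitals mark the letters searched for. These were GCGCANGCG (NRF1), CCGGAAG (ETS and GABP), AAGATGGC (YY1), CCAAT (NFY), AAGGTCA (ERR) and CATGTG (the E-box bound by Mitf, the melanocyte master regulator), on either strand.
Cox7b (chrX:106015450-106015749, plus strand, largest difference): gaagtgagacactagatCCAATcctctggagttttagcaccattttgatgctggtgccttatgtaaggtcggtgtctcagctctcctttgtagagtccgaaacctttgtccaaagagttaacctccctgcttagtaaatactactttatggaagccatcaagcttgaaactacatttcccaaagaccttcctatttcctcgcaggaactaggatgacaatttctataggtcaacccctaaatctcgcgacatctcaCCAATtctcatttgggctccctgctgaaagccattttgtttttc
Atp5e (chr2:174464052-174464351, minus strand, smallest difference): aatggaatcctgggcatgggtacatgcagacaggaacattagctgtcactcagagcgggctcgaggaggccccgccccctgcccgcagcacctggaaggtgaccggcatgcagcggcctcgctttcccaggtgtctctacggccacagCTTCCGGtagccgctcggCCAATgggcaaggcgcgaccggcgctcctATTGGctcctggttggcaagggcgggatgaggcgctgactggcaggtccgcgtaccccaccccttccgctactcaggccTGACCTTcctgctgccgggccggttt
Atp5g2 (chr15:102670998-102671297, minus strand, highest mean pileup): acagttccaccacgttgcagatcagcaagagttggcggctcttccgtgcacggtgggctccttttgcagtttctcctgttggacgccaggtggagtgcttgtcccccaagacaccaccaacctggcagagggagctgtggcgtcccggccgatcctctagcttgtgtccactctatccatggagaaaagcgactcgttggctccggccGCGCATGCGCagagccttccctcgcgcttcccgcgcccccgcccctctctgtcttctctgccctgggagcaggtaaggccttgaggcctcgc
The Atp5g2 window held a single palindromic run that matched the NRF1 letters on both strands and began 42 bases before the start. In Atp5e there was an ETS match at position -102, CCAAT on either strand at -84 and -55, and the ERR letters at 25. Cox7b held CCAAT at -233 and 7 and none of the other letters. The gene's highest peak overlapped the window in all 4 libraries for Atp5e and Atp5g2 but in only 2 for Cox7b. For each gene the summit of that peak lay outside the window in every library.

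NRF1, YY1 and ERR letters were found in a larger share of the respiratory chain promoters than of all promoters tested. Of the 82 genes, 68 (82.9%) had a RefSeq window, as did 8361 (80.5%) of the 10391. NRF1 letters were in 21 of the 68 windows (30.9%) against 15.9% of all, YY1 letters in 10 (14.7%) against 5.42%, and ERR letters in 7 (10.3%) against 2.71%. The shares lay closer together for ETS and GABP letters (23.5% against 21.0%), CCAAT (42.6% against 38.3%) and the Mitf E-box (10.3% against 7.49%). At least one of the NRF1, ETS or YY1 letters stood in 40 windows (58.8%) against 36.8% of all, while the median GC content was 58.7% against 62.3%. Over the windows of all protein-coding genes the shares were 9.28% (NRF1), 12.4% (ETS and GABP), 3.28% (YY1), 38.8% (CCAAT), 3.85% (ERR) and 11.1% (Mitf E-box). Only 76.4% of these genes had a window, so a comparison with them is void. HP minus LP differences were much alike with and without NRF1 letters (medians 1.04 and 1.10 on the log2 scale), and the 7 promoters with ERR letters had a median of 0.72 against 1.08 for the other 61. Letters in a window are a description and not evidence that a factor was bound.

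**Figure D1:**
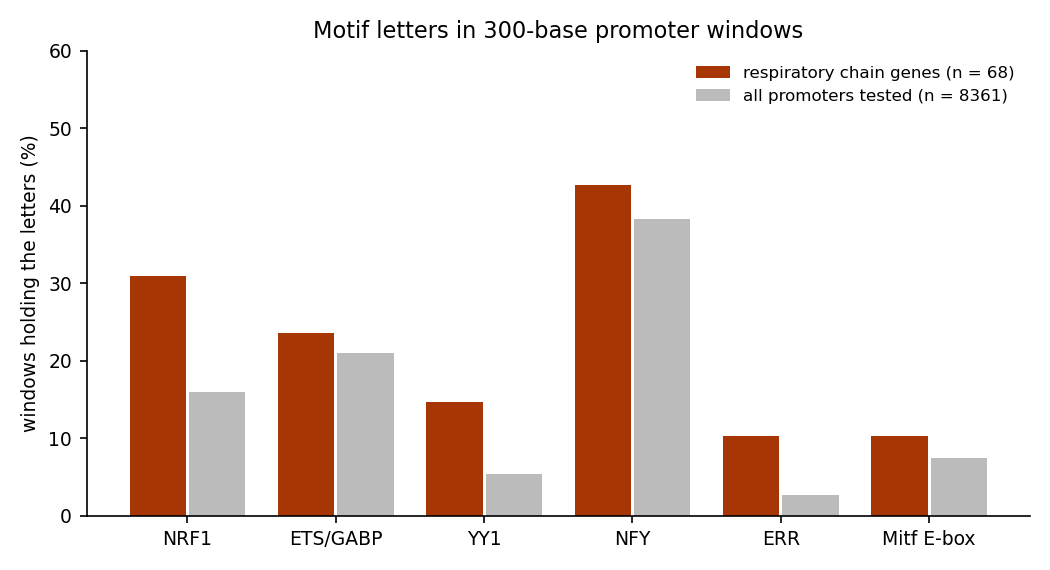
Share of promoter windows (%, y axis) holding the letters of each motif (x axis) on either strand, for 68 respiratory chain genes (dark bars) and 8361 promoters tested (grey bars). NRF1, YY1 and ERR show the widest gaps between the bars, 30.9% against 15.9%, 14.7% against 5.42% and 10.3% against 2.71%.

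Respiratory chain promoters carried H3K27ac at the level of an average marked promoter. The pileup is a height at a peak's summit and not a sum over its length, and each gene was given its highest promoter peak, in FPM. Over the 82 genes the median was 2.79 FPM in LP replicate 1 and 3.52 in LP replicate 2, 4.27 in HP replicate 1 and 9.65 in HP replicate 2. The genes ranged from 0.698 to 15.4 and from 0.716 to 10.8 in LP, and from 1.31 to 13.4 and from 2.74 to 29.4 in HP. Their median gene stood at percentile 43.0 of all promoters tested in LP replicate 1 and 42.5 in HP replicate 1, and at 55.6 in LP replicate 2 and 60.4 in HP replicate 2. Relative to the median of all promoters in the same library the members were thus lower in both libraries of replicate set 1. The log2 shift was -0.21 in LP and -0.19 in HP. In set 2 they were higher, by 0.14 in LP and 0.23 in HP. The sign of this shift went with the replicate set, and within each set the HP value was the higher. Neither pattern was tested.

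The mark lay mostly just inside the genes, as over all promoters tested, and its peaks were slightly narrower. The highest peak had a median width of 632.5 bp in LP replicate 1, 805 bp in LP replicate 2, 936 bp in HP replicate 1 and 1365 bp in HP replicate 2, against 666, 926, 1021 and 1457 bp over all promoters tested. Peaks were wider in HP, by the mean of the replicates, in 78 of the 82 genes (95.1%) and in 94.3% of all. The summit was downstream of the nearest start in 75.6% to 78.0% of the genes in each library, against 67.6% to 72.6% of all promoters tested. It was within 500 bp of that start in 91.5% to 93.9%, against 87.9% to 88.5% of all. The median distance was 132.5 to 145.5 bp, against 149 to 175 bp. No peak was the highest peak of more than one respiratory chain gene in any library.

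Many of these promoters served a neighbour too. In 33 of the 82 genes (40.2%) another protein-coding gene started on the opposite strand within 1 kb, against 20.1% of all promoters tested. Examples are Ndufb5 beside Mrpl47, a mitochondrial ribosomal protein gene, Sdhd beside Timm8b, a mitochondrial import chaperone gene, and Atp5j beside Gabpa, which encodes the DNA-binding subunit of the GABP complex. The summit lay nearest to a start of the gene itself in all 4 libraries for 61 genes (74.4%) against 80.5% of all promoters, and nearest to another gene's start in all 4 for 9 genes (11.0%, against 10.4% of all), namely Atp5h, Ndufa13, Ndufaf7, Ndufb10, Ndufb11, Ndufs1, Ndufs6, Sdhd and Uqcrh. Of these 9 only Ndufb10 had no other protein-coding gene starting within 1 kb. H3K27ac at promoters shared within 1 kb cannot be assigned to either gene. The 33 genes beside an opposite start and the other 49 had a median HP minus LP difference of 1.07 and 1.02 on the log2 scale.

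In 5 genes (6.10%) the highest peak was over 1 kb from every start of the gene in at least 1 library, against 10.5% of all promoters tested. The Ndufs6 value came in all 4 libraries from a summit 2.57 to 2.65 kb upstream, which lay 82 to 161 bp from the start of Mrpl36, and the Ndufb10 value from a summit 2.25 to 2.28 kb inside, at 96 to 124 bp from the start of Rps2, a ribosomal protein gene. For Ndufa4l2, a paralogue of Ndufa4 known to respond to hypoxia, the summit was 2.58 to 3.26 kb upstream with no nearer start of another gene. The Cox7b value came from its own start in 3 libraries and, in HP replicate 2, from a summit 4.04 kb upstream and 124 bp from the start of Magt1, a magnesium transporter gene. Ndufa13 had its summit 1.06 kb from its own start in HP replicate 2. These genes include the largest and several of the smallest differences below, so their values within 1 kb of the start are given beside them.

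**Figure D2:**
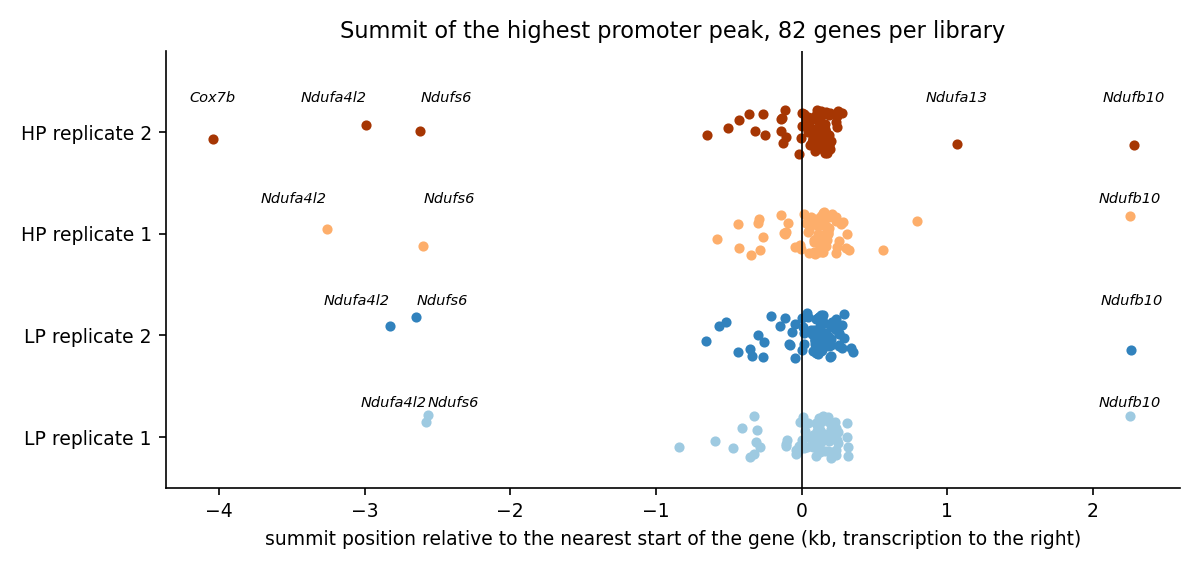
Position of the summit of the highest promoter peak relative to the nearest start of the gene (x axis, kb, transcription to the right) for the 82 respiratory chain genes in each of the 4 libraries (rows; points are spread vertically for legibility). Most summits lie just right of 0, and the named genes lie over 1 kb away, with Cox7b displaced only in HP replicate 2.

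HP against LP asked whether the pigmented population carried more H3K27ac at these promoters. All 82 genes had a higher mean log2 pileup in HP, as did 99.3% of all promoters tested, with a median log2 difference of 1.06, or 2.08-fold, against 0.90 over all promoters tested. By limma, fitted over all 10391 promoters with Benjamini-Hochberg adjustment, 2 genes were higher in HP at an adjusted p of at most 0.05, Cox7b and Ndufb8, against 80 promoters (0.77%) in all. None was lower in HP, against 1 promoter (0.00962%) in all. At an unadjusted p under 0.05, 37 of the 82 (45.1%) were higher against 30.9% of all, and 0 were lower against 1 of the 10391. Both HP libraries exceeded both LP libraries in 60 genes (73.2%), close to the 73.8% of all promoters. In none did both lie below, against 8 of the 10391 promoters. The standard error was 0.55 for every promoter, since limma estimated an infinite prior weight and used a single pooled variance. In these bulk libraries more mark per cell and a larger share of marked cells cannot be told apart.

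The size of the difference depended on the replicate set. In set 1 the median HP minus LP difference was 0.65 against 0.51 for all promoters, and 69 of the 82 genes (84.1%) were higher in HP against 80.6% of all. In set 2 it was 1.48 against 1.31, with all 82 higher against 99.0% of all. The 13 genes (15.9%, against 19.4% of all promoters) that were lower in HP in set 1 were Ndufa6, Ndufb7, Ndufs6, Ndufs8, Sdha, Uqcrc1, Uqcrfs1, Cox4i1, Cox5b, Ndufa4, Atp5e, Atp5f1 and Atp5g2. Every one of the 82 genes was highest in HP replicate 2, as were 87.8% of all promoters tested. The differences in the sets correlated weakly across the genes (Pearson's r = 0.19, Spearman's rho = 0.18, n = 82), as a description only, since genes of a library share its depth and enrichment.

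**Figure D3:**
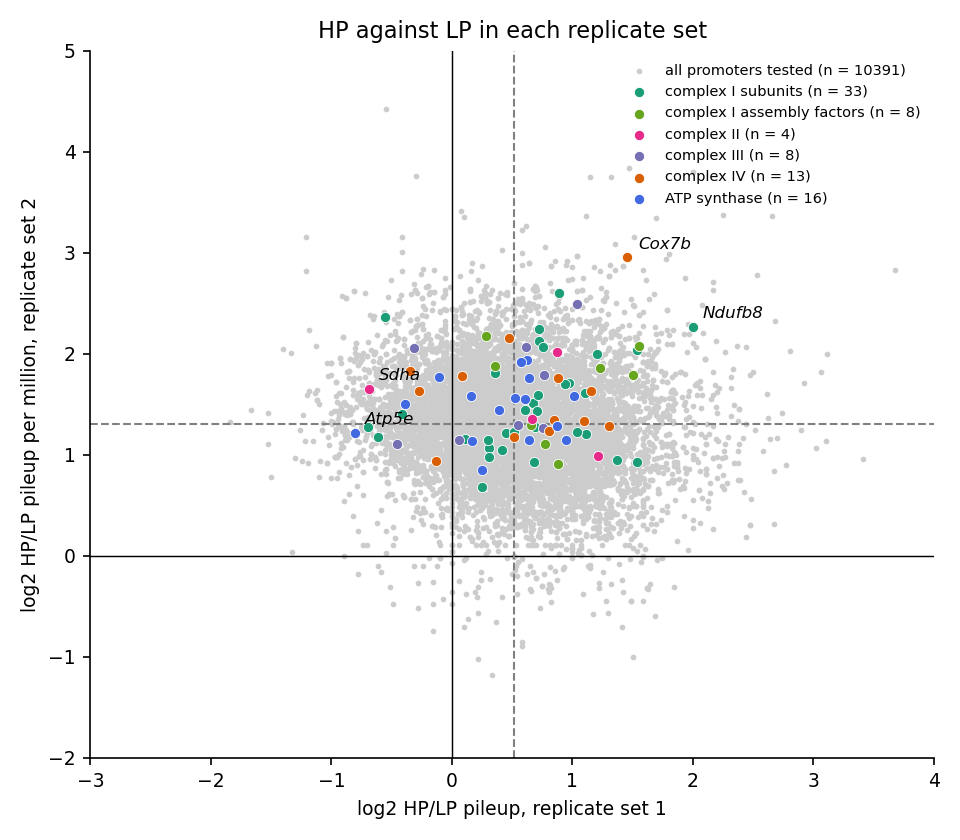
Log2 HP over LP pileup in replicate set 1 (x axis) and set 2 (y axis) for the respiratory chain genes, coloured by complex, over all 10391 promoters tested (grey), with dashed lines at the medians of all promoters (0.51 and 1.31). The genes lie within the cloud of all promoters, all above 0 in set 2 and 13 left of 0 in set 1.

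The HP excess was seen at promoters in general. With each library set to the median of its promoters, the median difference of the 82 genes was 0.08 against -0.08 for all promoters tested, 48 of the 82 (58.5%) lay above 0 against 41.6% of all, and none passed the adjusted threshold against 4 promoters higher (0.0385%) in all. The centred medians were 0.11 for the complex I subunits, 0.20 for their assembly factors, 0.08 for complex II, -0.01 for complex III, 0.12 for complex IV and 0.00069 for the ATP synthase. At an unadjusted p under 0.05, 3 genes were then higher, Cox7b, Ndufb8 and Ndufaf2, against 1.53% of all promoters. At that level 0 were lower, against 153 of the 10391 promoters. Libraries decided the count of 2: it was 65 (5693 of all promoters) without HP replicate 1, where HP replicate 2 is assumed to vary as the LP libraries do, and 0 without HP replicate 2, without LP replicate 1 or without LP replicate 2. With the replicate set as a block, 1 of the 82 remained, Cox7b, against 0.26% of all promoters. Genes of lower pileup had larger differences (Pearson's r = -0.50, Spearman's rho = -0.49 across the 82 genes, and -0.28 and -0.32 across all promoters), again as a description.

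**Figure D4:**
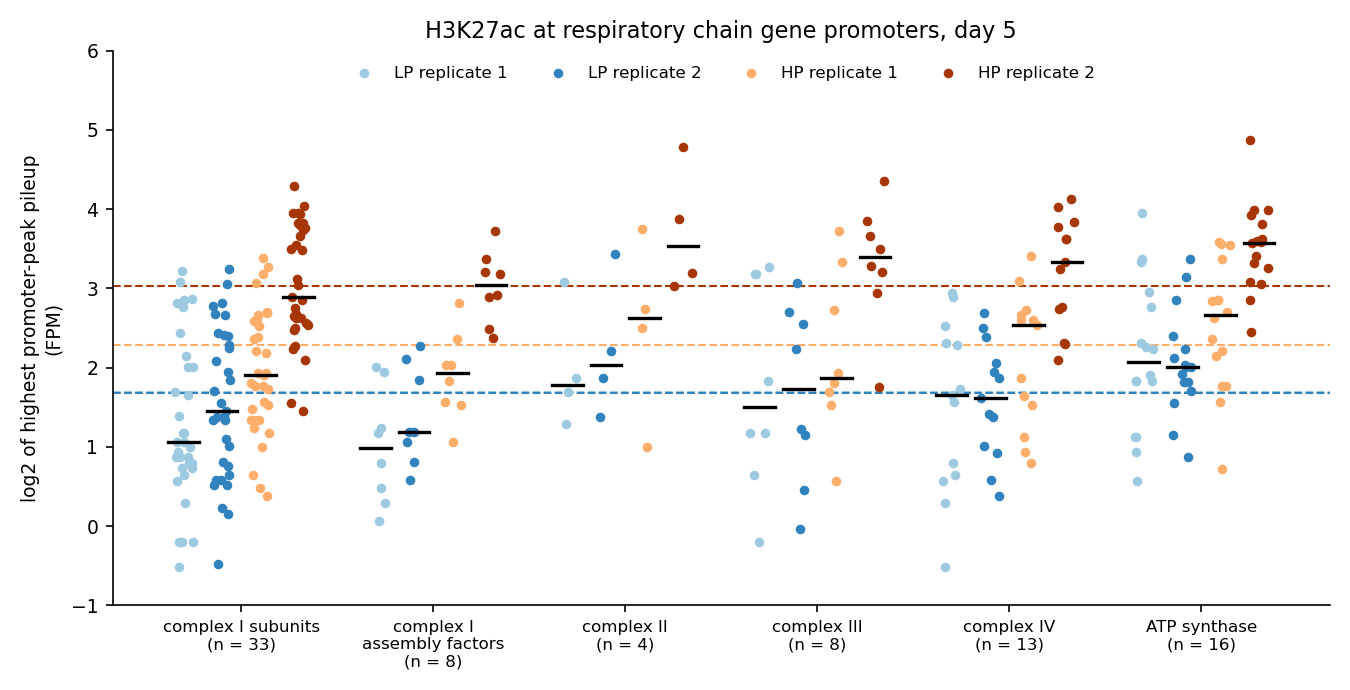
Log2 of the highest promoter-peak pileup (FPM, y axis) of each respiratory chain gene with a peak in all 4 lists, by complex (x axis) and library (colour), with the median of each set as a black bar and the median of all promoters tested in each library as a dashed line of that colour (LP lines overlap). HP replicate 2 is the highest library in every complex, and the complex I subunits have medians below the dashed lines while the ATP synthase has medians above them.

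Complex I, the entry point for electrons from NADH, had 33 of 36 subunit genes with a peak in all 4 lists. Their median pileup was 2.09 and 2.74 FPM in LP and 3.74 and 7.44 in HP, below the median of all promoters in each library. The median difference was 1.09 on the log2 scale, from 0.28 to 2.13, and 24 of the 33 (72.7%) had HP above LP without overlap, against 73.8% of all promoters. Only Ndufb8 passed the adjusted threshold.

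Ndufb8 (ENSMUSG00000025204, chr19:44548572-44555440), an accessory subunit of the membrane arm, had a pileup of 0.698 and 1.50 FPM in LP and 2.79 and 7.23 in HP. These stood for 8, 23, 32 and 103 fragments at the summit. The populations did not overlap, and HP was higher in both sets. The difference was 2.13 ± 0.55 (SE) on the log2 scale, or 4.39-fold, with an adjusted p of 0.0318 by limma, and 0.0543 with the replicate block. All 4 summits lay 57 to 169 bp from its own start. Relative to library medians the difference was 1.15, with an adjusted p of 0.987 by limma.

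Other complex I genes at the upper end were Ndufs5 and Ndufv1. Ndufs5, an accessory subunit, had 0.872 and 0.716 FPM in LP and 2.53 and 2.95 in HP. Ndufv1, the core subunit that binds NADH, had 1.83 and 1.11 in LP and 3.40 and 6.73 in HP. Both showed HP above LP without overlap, at log2 differences of 1.79 and 1.75 and adjusted p of 0.0735 and 0.0744 by limma.

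At the lower end, Ndufa6, an accessory subunit of the LYR family, had 9.33 and 6.32 FPM in LP and 5.75 and 15.3 in HP, with the LP values between those of HP. Its difference was 0.29, adjusted p = 0.627 by limma. Ndufs6 and Ndufb10 had differences of 0.28 and 0.47, read from the peaks at Mrpl36 and Rps2. Within 1 kb of the start Ndufs6 had 1.92 and 2.08 FPM in LP and 1.83 and 5.05 in HP, a difference of 0.60. Ndufb10 had 1.13 and 1.50 in LP and 0.958 and 11.3 in HP there, a difference of 1.34 in which HP replicate 2 was again the peak at Rps2, which reached into the narrower window. None of these passed the threshold (adjusted p = 0.341 and 0.124 within 1 kb by limma).

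Among complex I genes the highest mean pileup was at Ndufab1, the mitochondrial acyl carrier protein, with 7.24 and 9.44 FPM in LP and 9.67 and 19.6 in HP. The lowest were Ndufs5, Ndufa3 and Ndufa1, small accessory subunits. Ndufa3 had 0.872 and 1.50 in LP and 1.39 and 4.28 in HP, so that the populations overlapped, and Ndufa1 had 1.57 and 1.43 in LP and 2.53 and 2.74 in HP. Subunit genes without a peak in LP replicate 1 but with a peak in every other list were Ndufa12 (1.63 in LP replicate 2, 1.57 and 4.63 in HP), Ndufb3 (2.54, 3.74 and 7.72) and Ndufv3 (1.63, 0.958 and 5.47). They were left out of the test.

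Assembly factors of complex I had the largest median difference of the groups, 1.18 on the log2 scale, from 0.89 to 1.82, and 7 of 8 (87.5%) had HP above LP without overlap, against 73.8% of all promoters. All 8 had a peak in every list and none passed the adjusted threshold, while 5 (62.5%) had an unadjusted p under 0.05, against 30.9% of all. Ndufaf2, a chaperone of late assembly, had 1.40 and 1.76 FPM in LP and 4.09 and 7.44 in HP, a difference of 1.82 (adjusted p = 0.0691 by limma). It was higher in both sets, and its promoter is shared with Ercc8, a DNA repair gene. Ndufaf1 was the exception to the separation, with 1.22 and 4.30 in LP and 2.09 and 9.26 in HP.

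Complex II, succinate dehydrogenase, is built from nuclear genes alone and also works in the citric acid cycle. All 4 genes had a peak in each list, and 3 of 4 (75%) had HP above LP without overlap, against 73.8% of all promoters. Sdha, the flavoprotein subunit, had 3.23 and 2.61 FPM in LP and 2.00 and 8.21 in HP, so the HP values lay on either side of LP. Sdhb, the iron-sulfur subunit, had 8.46 and 10.8 in LP and 13.4 and 27.6 in HP, which placed it among the 6 genes of highest mean pileup. The membrane anchors had 2.44 and 4.62 in LP and 5.66 and 9.19 in HP (Sdhc), and 3.66 and 3.65 in LP and 6.71 and 14.7 in HP (Sdhd). Their log2 differences were 0.48, 1.01, 1.10 and 1.44 in the order Sdha, Sdhb, Sdhc and Sdhd, each with an SE of 0.55, and by limma none passed (adjusted p = 0.112 to 0.432). With that error the 4 genes cannot be told apart by their differences.

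Complex III hands electrons from ubiquinol to cytochrome c. Each of the 8 genes grouped here had a peak in all lists, with a median difference of 0.97 on the log2 scale. Of these, 5 (62.5%) had HP above LP without overlap, below the 73.8% of all promoters. Uqcrb, the ubiquinone-binding subunit, had the largest difference, with 1.57 and 1.37 FPM in LP and 3.22 and 7.72 in HP (1.77, adjusted p = 0.0744 by limma). Uqcrfs1, the Rieske iron-sulfur subunit, had 9.07 and 5.86 in LP and 6.62 and 12.6 in HP, overlapping, with a difference of 0.33 and an adjusted p of 0.584. Uqcrq, a small subunit whose start lies beside Gdf9, had the highest mean, with 9.07 and 8.40 in LP and 13.2 and 20.6 in HP. Uqcr11, another small subunit, had the lowest, with 0.872 and 0.977 in LP and 1.48 and 3.37 in HP.

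Complex IV, cytochrome c oxidase, was where marked and unmarked genes lay side by side. Of 20 genes, counting Ndufa4 and Ndufa4l2, 13 had a peak in all 4 lists, 3 in some and 4 in none, while 28.0% of all protein-coding genes had none. The 13 had a median difference of 1.10 on the log2 scale and 9 of them (69.2%) had HP above LP without overlap, against 73.8% of all promoters.

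Cox7b (ENSMUSG00000031231, chrX:106015700-106022450), a small subunit, had the largest difference of the 82 genes. Its values were 0.698 and 1.30 FPM in LP and 1.92 and 10.1 in HP, for 8, 20, 22 and 144 fragments, without overlap. The difference was 2.21 ± 0.55 (SE) on the log2 scale, or 4.61-fold, with an adjusted p of 0.0268 by limma, and 0.0474 with the replicate block. The 10.1 was the peak at Magt1. Relative to library medians the difference was 1.23, with an adjusted p of 0.828 by limma. With the peak at the start of Cox7b, 4.77 in HP replicate 2, the difference was 1.67 and no longer passed (adjusted p = 0.0879 by limma within 1 kb).

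Isoforms known from most cell types were marked and those known from muscle, lung or testis were mostly not. Cox4i1 had 7.41 and 3.84 FPM in LP and 5.83 and 13.7 in HP, whereas Cox4i2, the lung isoform, had no peak in any list. Cox6b1 had 1.48 and 2.02 in LP and 3.66 and 4.91 in HP, whereas the testis isoform Cox6b2 had none. Likewise Cox7b2 had no peak beside Cox7b.

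For Cox6a1 the values were 2.96 and 3.06 in LP and 6.62 and 9.47 in HP, while the muscle isoform Cox6a2 was called only in HP replicate 2, at 0.561. Cox8a had 5.76 and 4.17 in LP and 6.10 and 14.3 in HP, while the muscle isoform Cox8b had no peak and Cox8c, known from testis, had one only in HP replicate 2, at 0.421. Those single calls were close to the lowest pileup that was called in that library, 0.351 FPM. The muscle isoform Cox7a1 departed from this, with peaks at 0.698 and 1.17 in LP and 0.697 in HP replicate 1 and none in HP replicate 2. Its widely expressed counterpart Cox7a2 had 1.57 and 1.50 across LP replicates 1 and 2, against 2.18 and 6.66 across those of HP. For Cox7a2l, also widely expressed, the LP replicates gave 1.74 and 2.67, against 3.13 and 6.80 for those of HP. A gene without a called peak can still carry H3K27ac below the calling threshold.

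**Figure D5:**
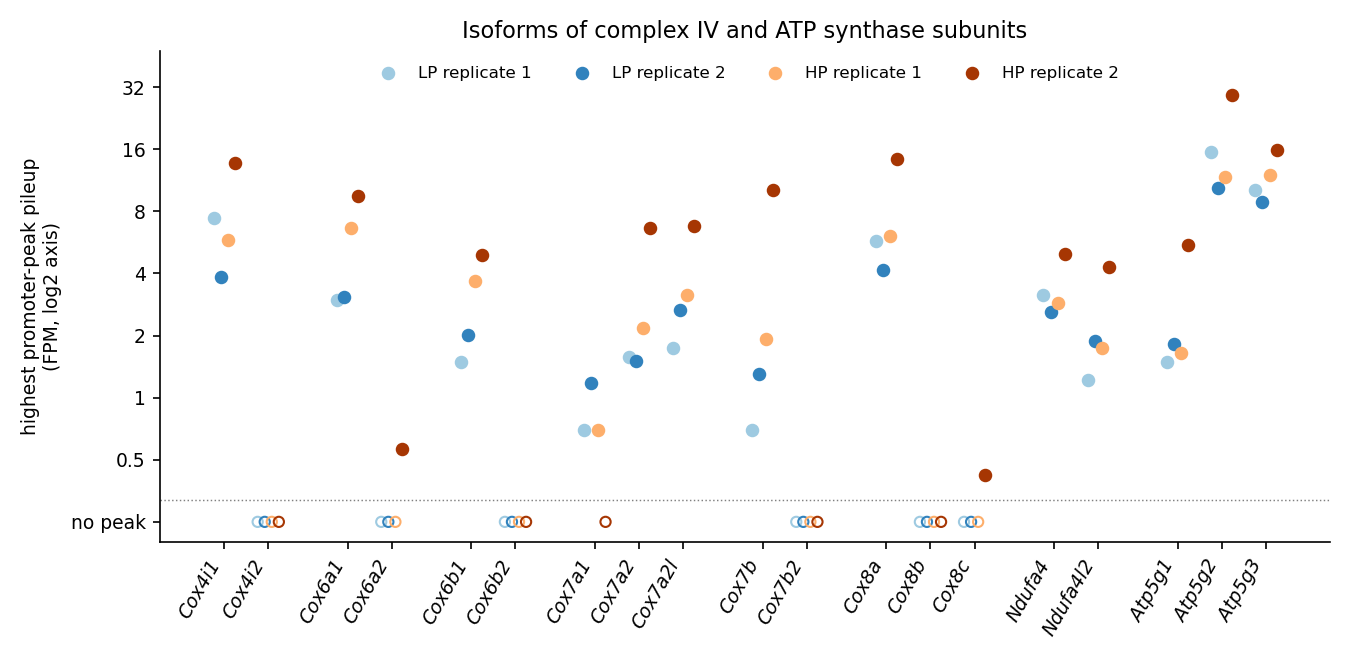
Highest promoter-peak pileup (FPM, log2 y axis) of subunit isoforms (x axis, grouped by subunit) in the 4 libraries (colours), with open circles for libraries without a promoter peak. Cox4i2, Cox6b2, Cox7b2 and Cox8b have no peak in any library, while Atp5g2 and Atp5g3 reach 29.4 and 15.9 in HP replicate 2.

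Ndufa4, first purified with complex I and later placed in complex IV, had 3.14 and 2.61 FPM in LP and 2.87 and 4.98 in HP, overlapping, with a difference of 0.40 (adjusted p = 0.503 by limma). The Ndufa4 summits lay at -353 and -436 bp from its nearest start in LP and at 130 and 94 bp in HP. In 2 libraries the summit was nearest to the start of Phf14, so the difference does not compare a single site. Ndufa4l2 had 1.22 and 1.89 in LP and 1.74 and 4.28 in HP, from the upstream peak, and no peak within 1 kb of its start in all lists. Neither gene separated the populations.

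The ATP synthase had the highest median pileup of the groups with more than 4 genes, 4.23 and 4.04 FPM in LP and 6.36 and 11.9 in HP, at percentiles 62.0 to 74.0 of all promoters. Its 16 genes with a peak in all lists had a median difference of 0.98 on the log2 scale, from 0.21 to 1.30, and 12 (75%) had HP above LP without overlap, against 73.8% of all promoters. None passed the adjusted threshold, and 4 of the 16 (25%) had an unadjusted p under 0.05 against 30.9% of all promoters.

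Atp5g1, Atp5g2 and Atp5g3 encode the same mature c subunit of the rotor ring, yet differed in level. Atp5g2 had the highest mean of all 82 genes, with 15.4 and 10.4 FPM in LP and 11.8 and 29.4 in HP. The Atp5g2 summit was at chr15:102672183 in HP replicate 1 and at 102670929 to 102670948 in the other libraries. Atp5g3 had 10.1 and 8.86 in LP and 12.0 and 15.9 in HP. In every library Atp5g1 was the lowest of them, with 1.48 and 1.82 in LP and 1.65 and 5.47 in HP. The Atp5g1 summit lay at -841 and 39 bp from the nearest start in LP and at 793 and 60 bp in HP. HP minus LP differences were 0.56, 0.55 and 0.87 for Atp5g2, Atp5g3 and Atp5g1, and only Atp5g3 separated the populations. For Atp5g2 and Atp5g1 the difference does not compare a single site across libraries. Summits lay over 1 kb apart between libraries in 3 of the 82 genes (3.66%, against 10.9% of all promoters tested), Cox7b, Atp5g1 and Atp5g2.

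Atp5j, a subunit of the peripheral stalk, had 10.4 and 7.23 in LP and 11.7 and 15.9 in HP, values it shared with Gabpa across their common promoter. Atp5e, the epsilon subunit of the catalytic head, had the smallest difference of the 82 genes, 0.21, with 7.76 and 5.28 FPM in LP and 4.44 and 12.3 in HP. Its HP values lay on either side of both LP values (adjusted p = 0.724 by limma). Atp5k, a membrane subunit, had no peak in LP replicate 1, 1.17 in LP replicate 2, and 2.26 and 2.95 in HP. Atp5o, the stalk subunit that confers oligomycin sensitivity, has a second entry in the annotation (ENSMUSG00000116933), which had a peak only in HP replicate 2, at 0.561, beside 3.58 and 4.69 in LP and 7.23 and 14.0 in HP at the first.

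Genes that work with the chain but lie outside the symbol rule gave like values. Of 42 genes for cytochrome c, other subunits and assembly factors, 40 had a peak in all lists, the exceptions being Cyct, the testis cytochrome c, and Uqcc3. Their median difference was 1.01 on the log2 scale, 31 of 40 (77.5%, against 73.8% of all promoters) had HP above LP without overlap, and 1 (2.5%, against 0.77%) passed the adjusted threshold, Coa3, an assembly factor of complex IV. Coa3 had 1.40 and 1.04 FPM in LP and 2.87 and 8.14 in HP (2.00, adjusted p = 0.0458 by limma, and 0.0737 with the replicate block). Relative to library medians its difference was 1.02. Cox17, the copper chaperone for complex IV, came next with 1.96 and an adjusted p of 0.0511.

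Regulators of the chain with a peak in all lists were more strongly marked at the median than the respiratory chain genes, and their median difference was smaller. Of 16 genes 13 had a peak in all lists, at medians of 6.80 and 5.54 FPM in LP and 6.97 and 12.6 in HP. The exceptions were Polrmt (0.697 and 2.31 in HP only), Ppara (1.50 in LP replicate 2, 4.35 and 2.67 in HP) and Tfb1m. Tfb1m had 1.57 and 1.17 in LP and 5.82 in HP replicate 2. The median difference of the 13 was 0.65. None passed the adjusted threshold, and 8 of 13 (61.5%) separated the populations, below the 73.8% of all promoters. Nrf1 had 24.9 and 13.9 in LP and 23.1 and 37.0 in HP. Yy1 had 26.6 and 10.2 in LP against 15.3 and 28.4 in HP, and for both genes the populations overlapped. Ppargc1a, the coactivator of mitochondrial biogenesis, was weakly marked, with 0.959 and 1.04 in LP and 1.04 and 1.82 in HP. Relative to library medians, the median difference was -0.33 for the regulators and 0.03 for the partners and assembly factors, beside 0.08 for the respiratory chain genes.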

How the data were processed

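H3K27ac ChIP-seq libraries of LP and HP cells (2 replicates each) were analysed. Per the labels, the authors demultiplexed with bcl2fastq 2.20, trimmed with Trimmomatic 0.33 and aligned to mm10 with Bowtie2 2.5.1. MACS 3.0.0b1 then called each library's peaks at a q-value cutoff of 0.05, with duplicates kept and the like-numbered IgG library as control. In the deposited tables the pileup is the unscaled signal, in fragments, at the summit. The deposited fold enrichment is the ratio of pileup to local background. The −log10 q-values deposited by the authors served only as an alternative filter. The labels give 1% formaldehyde for fixation, which the methods state differently.

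Starts came from GENCODE M21 for GRCm38, the build of the files. Pileups were divided by the library's fragments and multiplied by 1000000 (FPM, with 11467942 and 15353176 fragments in LP, 11483830 and 14254904 in HP) and log2 transformed without a pseudocount. Pileups are summits without molecular identifiers, and 1 fragment equals 0.0651 to 0.0872 FPM, so the lowest values (8 fragments) carry a large counting error. Genes lacking a peak in at least 1 list were not tested. limma 3.58.1 (R 4.3.3) compared HP with LP over 10391 promoters, with Benjamini-Hochberg adjustment and a threshold of 0.05. An exact permutation test of 2 against 2 libraries cannot go below a two-sided p of 0.333 and was not used. Replicate numbers mark sets with equal starting material, and the replicate differences of LP and HP correlated at 0.045 over promoters. The block was an alternative. The fit was tested on simulated data.

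Named genes were the called genes, those with the 6 largest and 6 smallest differences, the 6 highest and 4 lowest levels, genes missing from a list, isoform groups and complex II. Other genes named as examples were chosen after their values were seen. The members and lists were chosen with earlier results of these data known. Alternatives covered peak filters, windows, starts, scaling, variance and left-out libraries. Python 3.11.15, pandas 2.3.3, numpy 2.4.6 and matplotlib 3.10.9 were used.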

Additional observations from a re-analysis of the deposited data

How the results depend on the processing

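The median difference of the respiratory chain genes stayed above 0 under every alternative run, and none of the genes was lower in HP at an adjusted p of at most 0.05 in any fit. It was 0.0773 with libraries centred on their medians, also with the replicate block (added after seeing the data), 0.10 with quantile normalization, and 0.51 to 1.59 with libraries or replicates left out. The 2 genes called higher became 0 with centred libraries, with or without the replicate block, and with quantile normalization. The count was also 0 with scaling by fragments times fragment length, mean pileups, the prior variance as a trend or a window of 1 kb. A filter of at least 10 fragments in all libraries left none called but tested neither gene. Cox7b and Ndufb8 each had 8 fragments in LP replicate 1 and were removed by it beforehand. The count was 1 with the replicate block, with merged promoter regions, with the summit within 3 kb and with a window of 5 kb, and 0 to 65 with a library left out. Counts over all promoters moved likewise, from 80 to 0 with quantile normalization or mean pileups and to 5693 without HP replicate 1. The excess over the median of all promoters, 0.16, was 0.18 with mean pileups, 0.10 with quantile normalization and -0.060 to 0.35 with libraries or replicates left out. The block ended the calls at Ndufb8 and Coa3 and changed no other call among the genes named. Respiratory chain genes with a peak in all lists numbered 81 to 84 under other peak filters and windows, the filter of at least 10 fragments aside. Single genes were recomputed under the alternatives for 16 named genes only, while over all 82 genes 48 stayed above 0 with centred libraries. Of the 16, the differences reversed under centred libraries (with or without the block) and quantile normalization at Atp5e (-0.77 and -0.61), Ndufa4 (-0.58 and -0.59), Ndufa6 (-0.69 and -0.49), Ndufb10 (-0.51 and -0.46), Ndufs6 (-0.70 and -0.55), Sdha (-0.50 and -0.49) and Uqcrfs1 (-0.65 and -0.47), and at Atp5e also with mean pileups (-0.10). With libraries or replicates left out the differences ran from -0.81 to 1.22 at Atp5e, -0.13 to 0.93 at Ndufa4, -0.70 to 1.28 at Ndufa6, -0.61 to 1.18 at Ndufs6, -0.69 to 1.66 at Sdha and -0.45 to 1.11 at Uqcrfs1. The lone library of a population was then assumed to vary as the other population did, and single replicate sets gave values without a test. The cause of these moves was not tested. The lowest tested values rest on 8 fragments at the summit.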
